A study of Arabidopsis thaliana with 4 samples.

Results

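Genes whose transcript level differed between ERD15 overexpressor and empty-vector plants under both sprays are described here: 43 of 7326 measured genes, 19 of them higher and 24 lower in the overexpressor. Transcript levels were measured in rosette leaves of 3-week-old soil-grown Arabidopsis thaliana plants in the Col-0 background, on 4 Affymetrix ATH1 arrays, 1 array per group. The groups were line 52 overexpressing ERD15, sprayed with 100 µM abscisic acid (ABA) in 0.07% ethanol; plants with the empty pCP60 vector given the same ABA spray; line 52 given a mock spray of 0.07% ethanol; and pCP60 plants given that mock spray. All leaves were collected after 90 min, and both genotypes had been germinated on kanamycin. The labels of 3 samples state that leaves of 3 plants were pooled, and those of the mock-sprayed vector sample do not state it. Line 52 is the single overexpressing line on these arrays. A characteristic of its samples uses the word for a knock-out, against their titles and source names, and the overexpressor reading was used. ERD15 itself has no probe set paired with it in the annotation used, so the genotype labels were not checked against its level.

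The members were chosen on the genotype contrast itself. A gene was measured if a probe set paired with that gene alone had a mean signal of 29.0 or more, on a scale where each array has a trimmed mean of 100.0, and its brightest probe set stood for it. Signals under 13.3 were raised to 13.3, called the floor below; a fold with such a value on its lower side is a minimum and is written as "at least". A member had a log2 difference, overexpressor minus vector, of at least 1 under ABA and under mock, or of -1 or less under both. Genes changed 2-fold by ABA in the same direction in both lines, and a few genes named in the rule, were left out. Every genotype difference below therefore restates the choice and is given as a description, with no test. With 1 array per group there is also no replicate error, and no p-value is given for any value.

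ABA is the plant hormone of water deficit: it closes stomata and switches on protective genes, and it acts against some defence pathways in leaves. ERD15 is a small acidic protein whose transcript appears early in dehydration; it has a short motif that binds poly(A)-binding proteins and is known in Arabidopsis as a modulator of ABA responses. Setting the genotypes side by side under each spray asks which differences are present both with and without added ABA.

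Each array was scaled to the same trimmed mean, which in large part sets the overall signal. Under ABA, median signals over all non-control probe sets were 46.1 in the overexpressor and 40.3 in vector plants. Under mock they were 40.4 and 45.5 in the same order. As a check on the tissue, RCA, which encodes rubisco activase of leaf mesophyll, had signals of 7032 and 6908 in overexpressor and vector plants under ABA, and of 4094 and 9006 in overexpressor and vector plants under mock. It was the 1 measured gene of the 6 leaf markers. FMA, a guard cell transcription factor and the 1 measured gene of the 3 guard cell markers, read 47.9 in the overexpressor and 61.7 in vector plants under ABA, and 38.4 in the overexpressor and 59.2 in vector plants under mock, log2 differences of -0.37 and -0.63. No root, flower, seed, phloem or trichome marker on the lists was measured. The 25S ribosomal RNA control was lower in the overexpressor under both sprays, at 839 against 2126 in vector plants under ABA and 264 against 1849 in vector plants under mock, so this control moved with genotype in the same direction as the lower members. The hybridization spike-ins did not do so: bioB, bioC, bioD and cre differed by log2 values of 0.64, 0.34, 0.13 and 0.25 between overexpressor and vector under ABA, and by -0.86, -1.23, -1.31 and -0.97 under mock. The actin, GAPDH and ubiquitin controls differed by -0.09, -0.22 and -0.11 under ABA, and by -0.08, 0.60 and -0.36 under mock. The ratio of 3' to 5' signal was 5.33 to 6.52 over the arrays for actin, and 1.54 to 2.18 for GAPDH and ubiquitin. Floor values were most common on the vector mock array, with 72 genes there and 33 to 37 on each other array, and all 6 higher members with a floor value have it there. The part of these controls and floor values in the members' differences was not tested. In pooled leaves, fewer cells of a type and less RNA per cell cannot be told apart.

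Which genes differ between the genotypes whatever the spray was asked by setting the overexpressor against vector plants within each spray. These 2 contrasts share no array. Under ABA, 288 genes were at least 2-fold higher in the overexpressor (3.93% of those measured) and 156 at least 2-fold lower (2.13%), together 6.06%. Under mock the counts were 359 higher (4.9%) and 399 lower (5.45%), together 10.3%. In the same direction under both sprays were 23 higher genes (0.314%) and 28 lower genes (0.382%), before the exclusions. The 23 are 7.99% of the genes higher under ABA and 6.41% of those higher under mock, and the 28 are 17.9% of the genes lower under ABA and 7.02% of those lower under mock. Another 37 genes (0.505%) passed 2-fold in opposite directions. That count pools both orders, whereas the 23 and the 28 are each for a single direction. Across all 7326 genes, which are not independent replicates, the genotype differences under ABA and under mock had a Pearson r of 0.09. Among the 950 genes with a mean signal of 300 or more it was 0.40, and among the 4165 genes under 100 it was -0.0013.

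**Figure D1:**
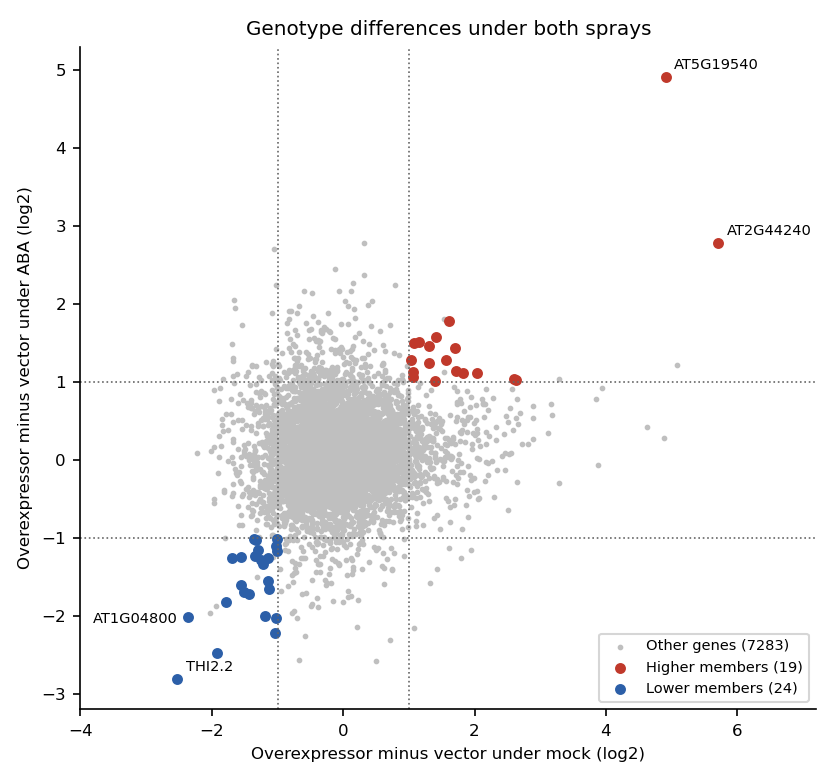
Overexpressor minus vector log2 differences under mock (horizontal axis) and under ABA (vertical axis), 1 point per gene, with members in red (19 higher) and blue (24 lower), the other genes in grey, and dotted lines at the threshold of 1. AT5G19540 and AT2G44240 lie at the upper right, past 4-fold under both sprays, and THI2.2 and AT1G04800 do so at the lower left.

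AT5G19540 had nearly the same large difference under both sprays. Its signal was 399 in the overexpressor and 2.49 in vector plants under ABA, and 401 in the overexpressor and 1.47 in vector plants under mock. Both vector signals were under the floor, which makes the gene at least 30.0-fold higher under ABA and at least 30.2-fold higher under mock. The overexpressor arrays thus gave nearly the same reading with and without ABA, and neither vector array had a signal above the floor. AT2G44240, which encodes a protein of the neprosin family (DUF239), read 95.1 in the overexpressor and 13.9 in vector plants under ABA, and 698 in the overexpressor and 3.61 in vector plants under mock. It was 6.85-fold higher under ABA and at least 52.5-fold higher under mock, and its overexpressor signal was itself far apart between the sprays. These are the members past 4-fold under both sprays among the 19 higher genes.

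Several higher members encode proteins of signalling, ubiquitin and defence families. GLR1.4, a glutamate receptor-like cation channel, read 226 in the overexpressor and 103 in vector plants under ABA, and 204 in the overexpressor and 62.1 in vector plants under mock, a 2.201-fold and a 3.283-fold difference. Both overexpressor signals were above both vector signals. AT5G51630 encodes an intracellular immune receptor of the TIR-NBS-LRR class. It read 69.9 in the overexpressor and 29.6 in vector plants under ABA, and 65.0 in the overexpressor and 26.4 in vector plants under mock, so that its differences of 1.24 and 1.30 in log2 nearly match. AT5G41400, a RING-type zinc finger protein of the kind that includes ubiquitin ligases, read 89.3 in the overexpressor and 43.4 in vector plants under ABA, and 201 in the overexpressor and 33.2 in vector plants under mock. Its difference was 2.06-fold under ABA and 6.05-fold under mock, and the overexpressor mock signal stood apart from the other 3. AT5G43310 encodes a protein related to an interactor of COP1, the repressor of light responses. It read 76.7 in the overexpressor and 25.6 in vector plants under ABA, and 105.5 in the overexpressor and 39.7 in vector plants under mock.

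Enzymes and nucleic acid-binding proteins make up most of the other higher members with a known family. CXE20, a carboxylesterase of the alpha/beta hydrolase fold, read 60.3 in the overexpressor and 17.6 in vector plants under ABA, and 40.7 in the overexpressor and 11.3 in vector plants under mock. It was 3.43-fold higher under ABA and at least 3.06-fold higher under mock. AT3G02060, a DEAD/DEAH box helicase, read 59.9 in the overexpressor and 24.7 in vector plants under ABA, and 58.0 in the overexpressor and 19.6 in vector plants under mock. Its overexpressor signals were nearly equal under both sprays, as were those of the TIR-NBS-LRR gene. AT3G13150, of the pentatricopeptide repeat family of RNA-binding proteins, read 95.2 in the overexpressor and 34.5 in vector plants under ABA, and 58.5 in the overexpressor and 23.7 in vector plants under mock. AT1G09740, of the universal stress protein family, read 48.8 in the overexpressor and 22.5 in vector plants under ABA, and 47.2 in the overexpressor and 12.9 in vector plants under mock, where the vector value was under the floor. LSM3A, a subunit of the Sm-like ring that binds the U6 small nuclear RNA and decapping substrates, was 2.19-fold higher under ABA and 2.09-fold under mock, at a mean signal of 34.6 over the 4 arrays. AT5G07820, related to calmodulin-binding proteins, had nearly identical folds of 2.09 under both sprays.

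The remaining higher genes are given without a role. AT2G25730 read 82.9 in the overexpressor and 30.6 in vector plants under ABA, and 88.8 in the overexpressor and 27.4 in vector plants under mock. AT3G03870 read 150.5 in the overexpressor and 52.6 in vector plants under ABA, and 65.9 in the overexpressor and 29.6 in vector plants under mock. AT5G19875 read 81.2 in the overexpressor and 37.5 in vector plants under ABA, and 118 in the overexpressor and 28.5 in vector plants under mock. Of these 3 genes, AT2G25730 had the most even difference, and AT5G19875 had the wider one under mock. AT3G27930 was lowest on the mock vector array alone, where it read 8.50, under the floor, against 82.1 in the overexpressor under mock; under ABA it read 96.3 in the overexpressor and 47.2 in vector plants. AT4G11950 and AT1G24560 were 2.84-fold and 2.03-fold higher under ABA, and 2.12-fold and 2.64-fold under mock. AT4G02490, a pseudogene in the RefSeq gene table, was 2.44-fold higher under ABA and at least 2.05-fold higher under mock.

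**Figure D2:**
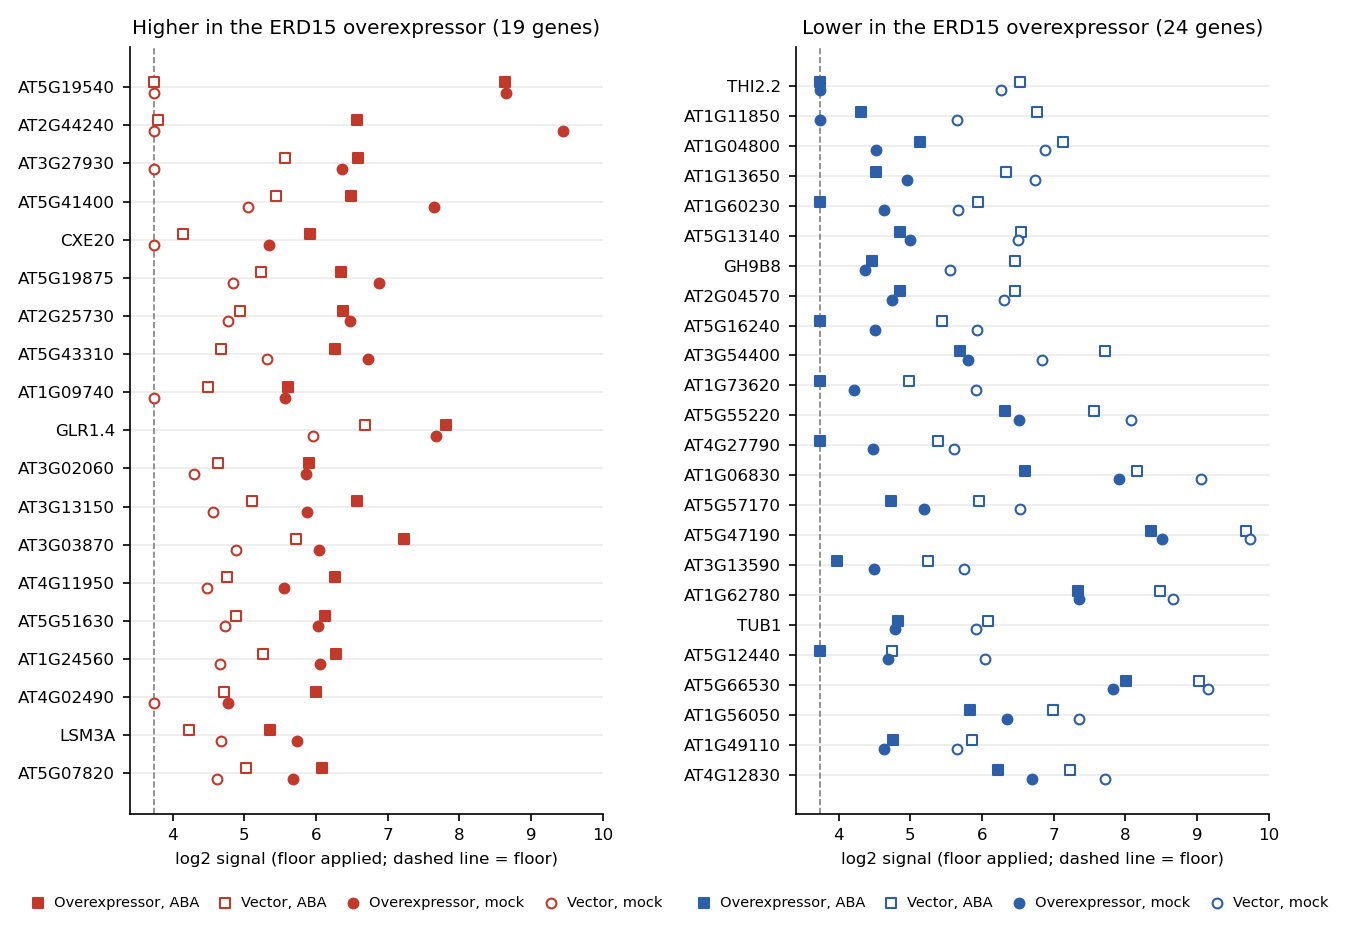
Log2 signals of the 19 higher (left) and 24 lower (right) members on all 4 arrays, with filled symbols for the overexpressor, open symbols for vector plants, squares for ABA and circles for mock; the dashed line is the floor of 13.3. On every row both filled symbols lie on the same side of both open symbols, with AT4G02490 and AT5G12440 the closest to overlapping.

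The 24 lower members include several genes of secreted and cell wall protein families. THI2.2 encodes a thionin, a small cysteine-rich antimicrobial peptide. It read 6.54 in the overexpressor and 92.7 in vector plants under ABA, and 10.9 in the overexpressor and 76.6 in vector plants under mock, both overexpressor values under the floor, so that it was at least 6.97-fold lower under ABA and at least 5.76-fold lower under mock. AT1G04800, which encodes a glycine-rich protein, read 34.9 in the overexpressor and 140.2 in vector plants under ABA, and 22.9 in the overexpressor and 118 in vector plants under mock. These are the members past 4-fold under both sprays among the 24. AT5G13140 encodes a protein of the Ole e 1 and extensin family. It read 28.9 in the overexpressor and 93.0 in vector plants under ABA, and 31.8 in the overexpressor and 90.8 in vector plants under mock, with its 4 values falling into 2 tight pairs by genotype. AT2G04570, a GDSL-type lipase, did likewise, at 28.9 in the overexpressor and 87.6 in vector plants under ABA, and 26.9 in the overexpressor and 78.8 in vector plants under mock.

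In GH9B8 and AT3G54400 the differences were unequal between the sprays. GH9B8, a family 9 glycosyl hydrolase of the endoglucanase type, was 3.99-fold lower under ABA and 2.28-fold lower under mock. AT3G54400, an aspartyl protease, was 4.05-fold lower under ABA and 2.04-fold lower under mock. GH9B8 read 22.1 in the overexpressor and 88.0 in vector plants under ABA, and 20.6 in the overexpressor and 46.9 in vector plants under mock. AT3G54400 read 51.9 in the overexpressor and 209.9 in vector plants under ABA, and 55.9 in the overexpressor and 113.8 in vector plants under mock. In both genes the overexpressor signals were close under both sprays, and the vector signal was higher under ABA. AT1G73620, of the thaumatin-like pathogenesis-related family, read 12.8 in the overexpressor and 31.6 in vector plants under ABA, and 18.6 in the overexpressor and 60.3 in vector plants under mock. Its overexpressor value under ABA was below the floor, which makes the 2.38-fold difference there a lower limit. TUB1, a beta-tubulin of the cortical microtubules, was 2.388-fold lower under ABA and 2.201-fold lower under mock.

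A second set of lower members encodes proteins of plastids or of protein synthesis and folding. AT5G47190, a plastid-type ribosomal protein of the L19 family, read 329 in the overexpressor and 826 in vector plants under ABA, and 365 in the overexpressor and 852 in vector plants under mock. It was 2.51-fold lower under ABA and 2.34-fold lower under mock, at a mean signal of 593. AT5G55220, a trigger factor-type chaperone, which in bacteria binds nascent chains at the ribosome, read 80.2 in the overexpressor and 189.8 in vector plants under ABA, and 91.3 in the overexpressor and 269.6 in vector plants under mock. AT5G66530, a galactose mutarotase-like protein, was 2.03-fold lower under ABA and 2.51-fold lower under mock, at a mean signal of 395. AT5G16240, an acyl-ACP desaturase of fatty acid synthesis, read 11.9 in the overexpressor and 43.4 in vector plants under ABA, and 22.7 in the overexpressor and 61.2 in vector plants under mock. The first of these is under the floor, so that the gene was at least 3.27-fold lower under ABA, against 2.70-fold under mock. AT1G56050, a GTP-binding protein, and AT1G60230, of the radical SAM family that modifies RNA in bacteria, were lower as well. AT1G56050 was 2.24-fold lower under ABA and was just past the threshold under mock, at 2.004-fold. AT1G60230 read 10.9 in the overexpressor, under the floor, and 61.4 in vector plants under ABA, and 24.8 in the overexpressor and 50.7 in vector plants under mock.

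Redox, signalling and other genes complete the lower members. AT1G06830 encodes a CC-type glutaredoxin, a class found in land plants, and was 2.928-fold lower under ABA and 2.203-fold lower under mock. AT5G57170, related to the animal cytokine MIF and its tautomerase fold, read 26.5 in the overexpressor and 61.8 in vector plants under ABA, and 36.4 in the overexpressor and 92.1 in vector plants under mock. AT3G13590, of the cysteine/histidine-rich C1 domain family, read 15.7 in the overexpressor and 37.9 in vector plants under ABA, and 22.5 in the overexpressor and 53.9 in vector plants under mock. Its log2 differences of -1.27 and -1.26 were almost the same. AT4G27790, an EF-hand calcium-binding protein, was at least 3.15-fold lower under ABA and 2.18-fold lower under mock, and AT5G12440, a CCCH-type zinc finger protein, was at least 2.01-fold lower under ABA and 2.56-fold lower under mock. AT4G12830, an alpha/beta hydrolase, was just past the threshold under both sprays, at 2.004-fold and 2.015-fold.

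Of the lower genes given without a role, AT1G11850 read 19.7 in the overexpressor and 108.9 in vector plants under ABA, and 4.30 in the overexpressor and 50.2 in vector plants under mock. It was 5.51-fold lower under ABA and at least 3.77-fold lower under mock. AT1G13650 read 23.0 in the overexpressor and 80.9 in vector plants under ABA, and 31.1 in the overexpressor and 107 in vector plants under mock, a log2 difference of -1.81 under ABA and -1.79 under mock. Both genes were lower by more than 3-fold in each spray. AT1G62780 was 2.21-fold lower under ABA and 2.47-fold lower under mock at a mean signal of 272, and AT1G49110 was 2.15-fold and 2.02-fold lower at a mean signal of 40.1.

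The genotype difference under ABA lay within a log2 of 0.25 of that under mock in 18 of the 43 members, against 27.7% of all measured genes, and within 0.5 in 32, against 52.1%. Since a member had to pass the same threshold in the same direction under both sprays, nothing is read from these shares. By the size, 16 of the 24 lower members had the larger difference under ABA, against 8 of the 19 higher ones. No share over all measured genes was counted for this, so nothing is read from it. The medians were 1.28 under ABA and 1.56 under mock for the higher genes, and -1.44 under ABA and -1.32 under mock for the lower genes. In 4 members the difference moved by more than 1 between the sprays, against 18.6% of all measured genes; a member has to be past the threshold in the same direction under both sprays, which limits such moves. They were AT2G44240 (ABA minus mock, -2.94), AT3G27930 (-1.60), AT5G41400 (-1.56) and AT1G60230 (-1.18). A floor value makes those of AT2G44240, AT3G27930 and AT1G60230 limits, and their moves are at least that large in size. In the 3 higher genes the difference was the smaller one under ABA, and in AT1G60230 it was the larger one in size. All 43 members had both overexpressor arrays on one side of both vector arrays, by a gap of at least 1 in log2 in 9 higher and 14 lower members. Of all measured genes, 18.5% had both overexpressor arrays above and 17.3% had both below, and 0.164% and 0.205% did so with a gap of at least 1. Since the members were chosen on this contrast, nothing is read from these counts.

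How the members respond to ABA was asked by setting the ABA array against the mock array within each line. Genes changed 2-fold in the same direction in both lines had been left out, so this contrast was used in part by the rule and is also a description. In 16 of the 43 members the ABA difference was under 0.5 in size in both lines, against 48.5% of all measured genes, and in 8 it was 1 or more in a line, against 16.2% of all measured genes for a 2-fold difference in either line (8.59% in the overexpressor and 10.2% in vector plants). The median size over the members was 0.43 in the overexpressor and 0.40 in vector plants, against 0.33 and 0.33 over all genes. The same arrays chose the members, and the members had lower signals than all genes. Nothing is therefore read from these shares and medians. In the overexpressor, AT4G02490 and AT3G03870 were 2.36-fold and 2.28-fold higher under ABA than under mock, the members past 2-fold in that direction (background 5.02%). AT2G44240, AT1G06830 and AT5G41400 were 7.34-fold, 2.48-fold and 2.25-fold lower under ABA in the overexpressor (background 3.56%). In vector plants, AT3G27930 was at least 3.55-fold higher under ABA and AT1G11850 2.17-fold higher (background 4.85%), and AT5G12440 was 2.46-fold lower (background 5.34%).

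**Figure D3:**
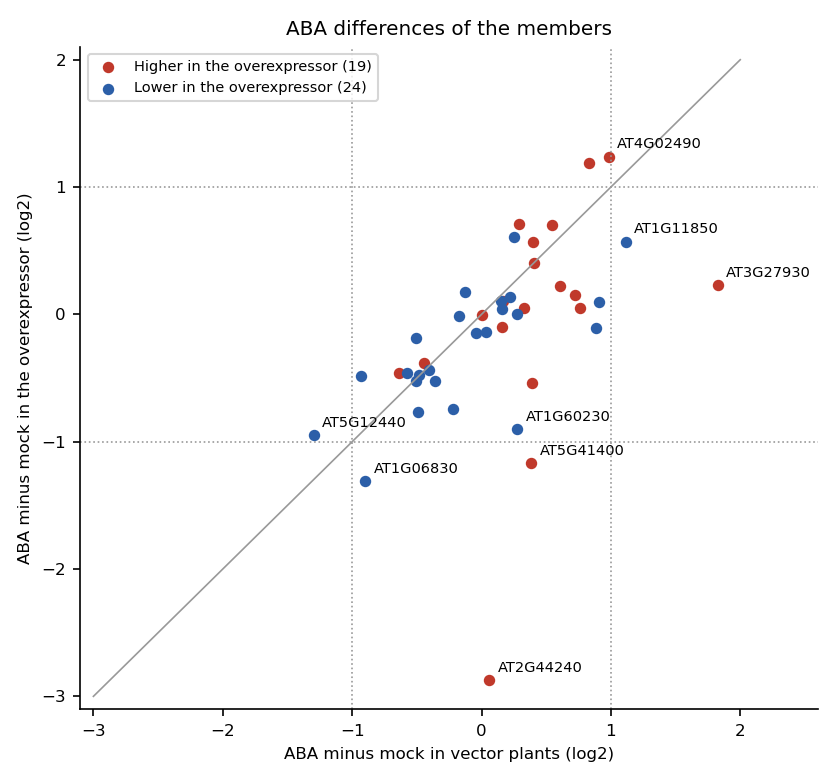
ABA minus mock log2 differences of the 43 members in vector plants (horizontal axis) and in the overexpressor (vertical axis), with a diagonal of equal differences and dotted lines at the threshold of 1. Most members lie near the middle. With the floor applied, AT2G44240 is the outlying point at -2.88 in the overexpressor and 0.06 in vector plants, and AT3G27930 lies at 0.23 and 1.83. The vector values of both genes are lower limits, since their vector mock signals were under the floor.

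The glutaredoxin gene AT1G06830 shows how a member can differ by genotype and by spray at once. Its signal was 97.4 under ABA and 241 under mock in the overexpressor, and 285 under ABA and 531 under mock in vector plants, so that it was lowest with both the transgene and ABA. Its ABA difference of -0.90 in vector plants was short of the threshold that would have left it out. AT4G02490 had an ABA difference of at least 0.98 in vector plants, since its vector mock signal was under the floor. With no floor that difference was 1.15 and the one in the overexpressor 1.24, which would leave AT4G02490 out of the members. AT1G11850, at 2.201 in the overexpressor and 1.12 in vector plants with no floor, and AT5G12440, at -2.62 and -1.30 in the same order, would be left out too, so that 18 higher and 22 lower genes would pass.

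Most members had low signals. A signal depends on the probe set as well as on the transcript, so it ranks no gene against another, but it bears on how well a difference was measured. The mean signal over the 4 arrays had a median of 54.2, against 85.0 over all measured genes, and 32 of the 43 (74.4%) had a mean signal under 100, as did 56.9% of all measured genes. Of the 1873 genes with a mean signal of 29 to 50, 15% differed 2-fold by genotype under ABA and 18.4% under mock, and 8 higher and 11 lower members came from this class (0.427% and 0.587% of it). Among the 950 genes at 300 or more, 1.58% differed 2-fold under ABA and 9.16% under mock, and they held 2 members, AT5G47190 and AT5G66530, both lower (0.211% of the class). Detection calls are not used here, and a low signal may hold background. At the floor on at least 1 array were 13 of the 43 members, against 2.28% of all measured genes. None of the members had more than 1 probe set past the filter, so no difference could be set beside a second probe set of the same gene. The counts of 19 higher and 24 lower of 7326 genes became 6 and 12 of the same number when 16 was added to each signal in place of the floor. With no filter on low signals they were 42 and 39, but of a larger set of 13355 genes. Centring the arrays on their medians gave 14 higher and 28 lower genes, so that 33.3% of them were higher, against 44.2% here.

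**Figure D4:**
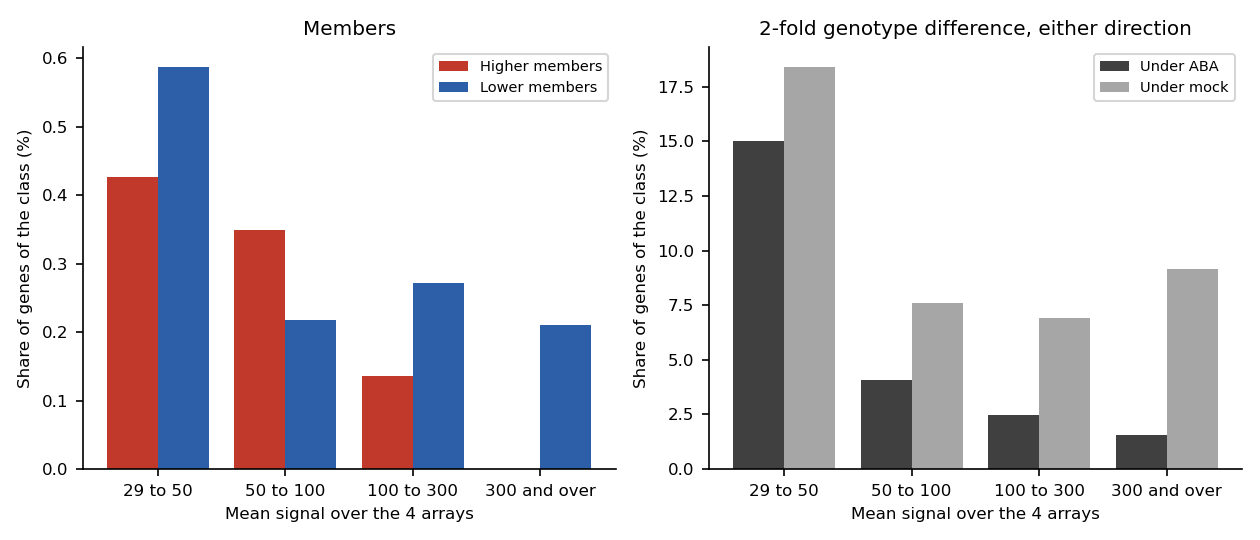
Share of the genes of each signal class that are higher (red) or lower (blue) members (left), and share with a 2-fold genotype difference in either direction under ABA (dark) or under mock (light) (right). The lowest class, with a mean signal of 29 to 50, has the highest share in all 4 of these counts.

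In the gene order of the TAIR10.1 RefSeq table, used here for order only, the members lay on all 5 chromosomes. There were 15 on chromosome 5, 13 on chromosome 1, 7 on chromosome 3 and 4 each on chromosomes 2 and 4, which is 0.86%, 0.689%, 0.477%, 0.369% and 0.38% of the genes measured there. The nearest pair, AT5G12440 and AT5G13140, were 34 genes apart and both lower, and the next, AT5G19540 and AT5G19875, were 38 genes apart and both higher. The median distance to the nearest other member was 273 genes. No such distance was worked out for other sets of measured genes, so nothing is read from these distances. Among the 234 measured genes found within 10 places of a member, none passed the 2-fold rule under both sprays. Over all measured genes, 0.314% passed it as higher and 0.382% as lower, so nothing is read from this count. Beside AT5G19540, AT5G19510 and AT5G19500 had genotype differences of -0.54 and 0.18 under ABA and of -0.23 and -0.34 under mock, whereas AT5G19570, 3 places away, had -0.99 under ABA and -1.80 under mock, opposite in direction to AT5G19540. Next to AT2G44240, AT2G44230 had -0.33 under ABA and -0.30 under mock. AT2G44210, another gene of the neprosin family, read 571 in the overexpressor and 662 in vector plants under ABA, and 551 in the overexpressor and 662 in vector plants under mock, so that 2 nearby genes of the same family differed by genotype to unlike extents.

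Relatives of the members were found by symbol stem, chosen once the members were known. Of 5 measured beta-tubulin genes, TUB1 was the member. TUB7 and TUB6 had smaller negative differences, -0.70 and -0.59 under ABA and -0.67 and -0.36 under mock, while those of TUB9 were 0.19 and 0.18 and those of TUB5 0.38 and 0.06. Of 6 measured glutamate receptor-like genes, GLR1.4 was the member. GLR2.7 had -0.20 under ABA and 1.05 under mock, and GLR3.6 had 0.74 under ABA and -1.002 under mock. GLR3.3 had 0.64 under ABA and -0.29 under mock, GLR3.5 had 0.48 and -0.32, and GLR2.8 had 0.04 and -0.01. Of 5 measured family 9 glycosyl hydrolase genes, GH9B8 was the member. GH9C2 was past 2-fold lower under mock alone, with -0.42 under ABA and -1.68 under mock, and GH9B5 had -0.23 and -0.66. GH9B7 had -0.37 under both sprays, and GH9A3 had 0.44 under ABA and 0.10 under mock. Of 6 measured Sm-like genes, LSM3A was the member, and LSM3B, its close copy, had 0.06 under ABA and 0.24 under mock. LSM6B had -0.15 under ABA and 1.03 under mock, LSM6A had 0.26 and 0.98, LSM1B had 0.12 and -0.29, and LSM1A had -0.20 and 0.01. CXE16 had -0.74 under ABA, opposite in direction to the 1.78 of CXE20, and 1.39 under mock, where CXE20 had at least 1.61.

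The lists of hormone and defence genes held few measured genes. Of 19 salicylic acid defence genes 2 were measured, and neither was 2-fold higher in the overexpressor under ABA, where the background was 3.93%: SAG101, a lipase-like partner of EDS1, had 0.06 under ABA and 1.62 under mock, and the glutaredoxin gene GRX480 had 0.64 and 1.13. Both were thus past 2-fold higher under mock, where the background was 4.9%. Of 20 ABA and dehydration response genes 4 were measured, with a median genotype difference of 0.03 under ABA and -0.27 under mock, against 0.08 and -0.09 over all genes. COR47 alone among them was past 2-fold, lower under mock (-1.24). Of 11 jasmonate, ethylene and thionin defence genes 4 were measured, with THI2.2 the member. AT1G66100, a second thionin-type gene, read 856 in the overexpressor and 1405 in vector plants under ABA, and 736 in the overexpressor and 1237 in vector plants under mock, log2 differences of -0.71 and -0.75. The defensin genes PDF1.2 and PDF1.2b, which are close copies that may share signal, had 2.15 and 2.45 under ABA and -0.47 and -0.12 under mock. AT4G14270, the 1 measured gene of the list of ERD15 relatives and poly(A)-binding proteins, had 0.70 under ABA and 0.42 under mock.

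Near the threshold, the genes just inside were AT1G24560, AT3G27930 and AT4G02490 on the higher side, with smaller differences of 1.02, 1.03 and 1.03, and AT1G56050, AT4G12830 and AT5G12440 on the lower side, at 2.004-fold, 2.004-fold and 2.007-fold by the smaller difference. Just outside lay AT4G32950, CCL and AT1G34380, with 0.99, 0.97 and 0.94, and FU, AT5G19570 and AT1G72640, with -0.99, -0.99 and -0.99. The rule also set aside 8 genes past 2-fold under both sprays. Of these, AT5G27930 (higher) and AT1G80640, AT4G29020 and AT5G63180 (lower) were changed 2-fold by ABA in both lines, and AT4G12490, AT5G17760 and AT3G28510 (higher) and AT5G48490 (lower) are named in it. AT4G29020, a glycine-rich protein gene like AT1G04800, had -1.86 under ABA and -1.93 under mock.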

How the data were processed

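The authors deposited 1 intensity per probe set on a linear scale; per the submitters' processing notes these signals came from MAS5 (version not given in the sources used here). Such signals are background-subtracted and set to the same average on every array, so total RNA cannot be compared. Of 22810 probe sets, 64 were controls, 13513 had 1 gene in the platform annotation, 503 had several, and the other 8730 were paired with none there. A RefSeq TAIR10.1 locus was found for 13436 of the 13513 and gave names and gene order.

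In Python 3.11.15 with pandas 2.3.3, arrays were rescaled so that the mean without the outer 2% at each end, controls left out, was 100.0. The pooled 25th percentile set the floor, the pooled 40th percentile set the filter on mean signal, and log2 was taken. Of the probe sets, 7404 passed, for 7326 genes. The number of arrays limits the precision. No test was run, because each group holds 1 array and the rule used the contrasts. Every member is named. Signals on all arrays are given for the 12 higher and 12 lower members with the largest smaller difference, for THI2.2 and for members whose difference moved by over 1 between sprays; those of GH9B8, AT3G54400 and AT1G06830 were added after their values were seen. The members and lists were chosen with earlier results of these data known. Words for families such as glycine-rich or GDSL were searched in the RefSeq synonyms and found THI2.2 alone among measured genes. The signals of neighbouring genes and relatives were likewise added once the members were known. Sequences were not analysed here.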

Additional observations from a re-analysis of the deposited data

Results flagged for a closer look

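AT2G44240 and AT5G41400 had ABA minus mock differences of opposite sign in the lines, at least 2-fold in 1 of them: -2.88 in the overexpressor and 0.06 in vector plants for AT2G44240, and -1.17 in the overexpressor and 0.39 in vector plants for AT5G41400. The difference between the lines was not tested. The vector value of AT2G44240 is a lower limit, since its vector mock signal was under the floor.

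Probe sets with no paired gene, outside the comparisons above, also hold signals that differ by genotype. The widest difference on the higher side was 3.10 under ABA, with 121.9 in the overexpressor and 14.2 in vector plants, and at least 3.77 under mock, with 181 in the overexpressor and 4.79 in vector plants. That probe set is of the shared-sequence kind, so other transcripts may add to its signal. The widest on the lower side was -2.27 under ABA, with 13.3 in the overexpressor and 64.4 in vector plants, and -3.04 under mock, with 12.7 in the overexpressor, under the floor, and 109 in vector plants.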

How the results depend on the processing

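Filter settings change how many genes are measured, 7326 in the main setting. The counts of 19 higher and 24 lower genes depended on the treatment of dim signals. With 16 added to each signal in place of the floor they were 6 and 12, and 16 of the 43 members stayed 2-fold under both sprays. With no filter they were 42 and 39 of 13355 genes. With the filter at the 60th percentile they were 6 and 9 of 4669 genes. In that setting 15 members were measured, and all 15 had to stay, as signals, floor and threshold were unchanged. Of them, 4 members in place of 8 had a 2-fold ABA difference. At a log2 threshold of 1.5 the counts were 3 and 6. Quantile normalization kept 30 of the 43 members 2-fold by genotype under both sprays, 12 higher and 18 lower. Of these, AT3G03870, AT4G02490 and AT5G12440 then had a 2-fold ABA difference in both lines and would be left out. The full rule gave 13 higher and 20 lower of 7318 genes there. Centring the arrays on the median kept 39 by genotype, of which AT4G02490 would be left out for its ABA differences. It gave 14 higher and 28 lower genes, 33.3% higher in place of 44.2%, with the median genotype difference of all genes under ABA at -0.02 in place of 0.08. All 43 stayed 2-fold by genotype with the deposited scale, no filter, a floor at the 10th percentile, no floor, the mean over probe sets, or shared-sequence probe sets left out. The filter and probe set settings left the members' signals unchanged, and a lower floor can only widen their differences. Staying was thus fixed in advance in those settings. With the 10th-percentile floor or none, however, 10 members had a 2-fold ABA difference, and AT4G02490, AT1G11850 and AT5G12440 had one in both lines and would be left out, for counts of 18 and 22. Past 2-fold under both sprays in each of the 10 alternatives in which they were measured were 6 higher members, AT5G19540, AT2G44240, CXE20, AT2G25730, AT5G43310 and GLR1.4, and 10 lower ones, THI2.2, AT1G04800, AT1G11850, AT1G13650, AT2G04570, AT5G13140, AT5G55220, AT5G47190, AT1G62780 and AT1G06830. No 2-fold difference of a member changed sign. No paired analysis was possible because the groups share 1 replicate number, and no array could be left out because each group holds 1.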

Other observations

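Of 5977 probe sets with no paired gene that passed the filter, 26 (0.435%) were higher and 29 (0.485%) lower in the overexpressor by the rule used for the members, against 19 (0.259%) and 24 (0.328%) of the 7326 genes. These probe sets were not named here.

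CCL, a gene just outside the threshold, had a mean signal of 1053, with an overexpressor minus vector difference of 1.21 under ABA and 0.97 under mock.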
